A study of Mus musculus with 5 samples.

Results

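The respiratory chain and ATP synthase of the inner mitochondrial membrane were examined through the nuclear genes that encode their subunits. Members were all genes whose symbol begins with Ndufa, Ndufb, Ndufc, Ndufs or Ndufv and a digit, with Uqcr, with Cox and a digit from 4 to 8, or with Atp5. These rules took 81 of 24970 genes, and 75 of the 81 had enough counts to be tested. By symbol, 38 belonged to complex I (36 tested), 8 to complex III (8 tested), 18 to complex IV (14 tested) and 17 to complex V (17 tested). The symbols do not take in the Sdh genes of complex II, which are given as a list of their own. Entries named as mitochondrially encoded subunits numbered 0 in the tables, so the 13 subunits made from mitochondrial DNA were not analysed here.

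Complex I takes electrons from NADH and complex II takes them from succinate. Complex III passes them to cytochrome c, complex IV hands them to oxygen, and the protons pumped on the way drive ATP synthesis by complex V. The subunits come from both the nuclear and the mitochondrial genome and are assembled with the help of dedicated factors. The urothelium is the layered lining of the bladder, in which basal cells rest on the basement membrane and umbrella cells face the urine.

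RNA-seq was made from bladder urothelium dissected away from the muscle layer of mice aged 10 weeks, with 1 library per mouse. The 2 control mice were wild type of strain C57Bl/6 (WT), and the 3 knockout mice were Krt5CreERT2;Ncstnflox/flox (KO). Ncstn encodes nicastrin, a subunit of the gamma-secretase that releases active Notch, and the Krt5 promoter drives the tamoxifen-dependent Cre recombinase in basal cells, so that other cells of the tissue do not express the recombinase directly. The sources used here do not say when or how the recombinase was induced, and a strain is named for the WT mice alone, so strain and genotype cannot be told apart. The comparison asks how subunit transcripts differ in urothelium of mice with floxed Ncstn.

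Gene counts ranged from 12608836 to 27188499 per library, and values are given as CPM, which are counts brought to a common library size with scaling factors between libraries. Ncstn itself was at 144 and 130 CPM in the WT libraries and at 114, 117 and 123 CPM in the KO libraries, and this difference did not pass the test (log2 fold change -0.21 ± 0.09 SE, edgeR adjusted p = 0.133). Counts over the whole gene include exons that may lie outside the deleted part, so they do not check the deletion. The library WT 1 had the highest share of the ribosomal RNA precursor Rn45s, at 7.84% of gene counts against 3.23% in WT 2 and 0.608% to 1.53% in the KO libraries. It also had the highest share of reads outside genes, at 17.1% against 9.79% to 13.3% in the other libraries. Umbrella cell markers were present throughout, with a summed level of 10481 and 11638 CPM in WT and 15893 to 17493 CPM in KO. In KO 6 of 10 rose, beside 9.64% of all genes. Their median log2 fold change was 0.58, and 0.50 without WT 1. Basal cell markers summed to 3861 and 4610 CPM in WT and 3720 to 6235 CPM in KO. Of 7 tested 1 rose and 2 fell, beside 9.64% and 10.0% of all genes. Fibroblast markers were present as well, with a summed level of 17869 and 19917 CPM in WT and 11833 to 13960 CPM in KO. Of these, 10 of 12 fell, beside 10.0% of all genes. Their median log2 fold change was -0.64, and -0.53 without WT 1.

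Promoter windows were found for 65 of the 81 members, and were searched because shared promoter elements are a known feature of this gene family. They are shown only for subunit genes that passed the test below and held a motif named next outside annotated exons. The sequences are from RefSeq on GRCm38.p6, written 5′ to 3′ on the strand of the gene, and hold the stretch before the start site around the motif that no annotated exon covers. In the first sequence the capitals mark a match to the motif of the transcription factor NRF1, which is GCGC and TGCGC with any 1 base between them. In the others they mark matches to the ETS core bound by factors such as GABPA (CCGGAA), read here on the opposite strand as its reverse complement, and in Ndufa10 on both strands at once in a palindrome. The windows lie at chr17:56717686-56717761 on the plus strand (Ndufa11), chr1:92473861-92474008 on the minus strand (Ndufa10) and chr19:4012807-4013005 on the minus strand (Ndufv1).
Ndufa11: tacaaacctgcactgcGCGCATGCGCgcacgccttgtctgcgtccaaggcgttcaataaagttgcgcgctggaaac
Ndufa10: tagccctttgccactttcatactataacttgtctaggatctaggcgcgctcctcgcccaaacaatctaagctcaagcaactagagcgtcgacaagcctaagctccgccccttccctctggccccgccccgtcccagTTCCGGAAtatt
Ndufv1: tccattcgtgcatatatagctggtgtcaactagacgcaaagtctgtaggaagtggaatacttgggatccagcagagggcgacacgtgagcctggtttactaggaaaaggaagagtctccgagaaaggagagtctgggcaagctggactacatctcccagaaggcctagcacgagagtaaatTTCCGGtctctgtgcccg
Vmac is transcribed the other way from Ndufa11, and its exons overlap 6.41% of the exon bases of Ndufa11. The place of the Vmac start relative to the printed stretch was not examined. Of the other genes that passed, Atp5g1, Atp5g3 and Cox5a held neither motif in their windows. No window was found for Cox4i1 and Ndufa4l2.

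Over both strands of the 250 bases before the start, the NRF1 motif was held by 12 of the 70 member windows (17.1%), against 3.74% of the 32851 promoters in the table. The ETS core was held by 19 of 70 (27.1%), against 12.0% of all promoters. The YY1 motif AANATGGCG was held by 3 of 70 (4.29%) against 1.12%, and the estrogen-related receptor motif AAGGTCA by 5 of 70 (7.14%) against 4.08%. Taken as a ratio, the shares were nearer to those of all promoters for the hypoxia-inducible factor core ACGTG (21.4% against 16.6%) and the SP motif GGGCGG (34.3% against 32.7%). These are descriptions of letters in the windows, with no test. Several members have more than 1 window, and the motifs were not required to be separate from each other. The bases after the start matched an annotated transcript of the member in 64 of the 70 windows. Windows without such a match included Atp5g2 and Atp5h, which held the NRF1 motif, and Ndufs7, which held the ETS core as Atp5h did. The promoters compared were not matched for base composition or expression.

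In the comparison of KO with WT, 8 of 75 subunit genes rose (10.7%) and 1 fell (1.33%). Over all 14779 genes tested, 9.64% rose and 10.0% fell, so the share of subunit genes that rose was close to the background and the share that fell was below it. Together 9 of 75 passed (12.0%), against 19.7% of all genes. The threshold was a Benjamini-Hochberg adjusted p of 0.05 in the edgeR quasi-likelihood test over all genes. The estimated log2 fold change was above 0 for 69 of 75 subunit genes (92.0%), against 50.9% of all genes, and its median was 0.19 against 0.01 for all genes. All 3 KO libraries lay above both WT libraries for 22 of 75 subunit genes (29.3%), against 25.9% of all genes. All 3 lay below both for 2 (2.67%), Ndufa4l2 and Cox4i2, against 25.1% of all genes. The genotypes thus did not overlap for 24 of 75 subunit genes, against 51.0% of all genes, and the unadjusted p was under 0.05 for 19 (25.3%), against 34.8%. In tissue RNA, fewer cells of a type and less RNA per cell cannot be told apart.

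The small upward shift was uneven between the libraries of 1 genotype. On the scale of log2(CPM + 0.5) minus the mean of the 5 libraries, the median over the 75 genes was -0.32 in WT 1 and 0.09 in WT 2. It was 0.14 in KO 1, 0.15 in KO 2 and -0.04 in KO 3. WT 1 held the lowest value for 68 of 75 genes (90.7%), against 27.3% of all genes, while WT 2 lay above WT 1 for 74 of 75, the exception being Ndufa10. WT 2 held the highest of the 5 values for 20 genes, KO 1 for 28 and KO 2 for 27. KO 3 lay below both other KO libraries for 64 of 75. WT 2 lay within the range of the KO libraries for 33 of 75 genes, below all 3 for 22 and above all 3 for 20, and in the median it lay between KO 3 and KO 1.

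**Figure D1:**
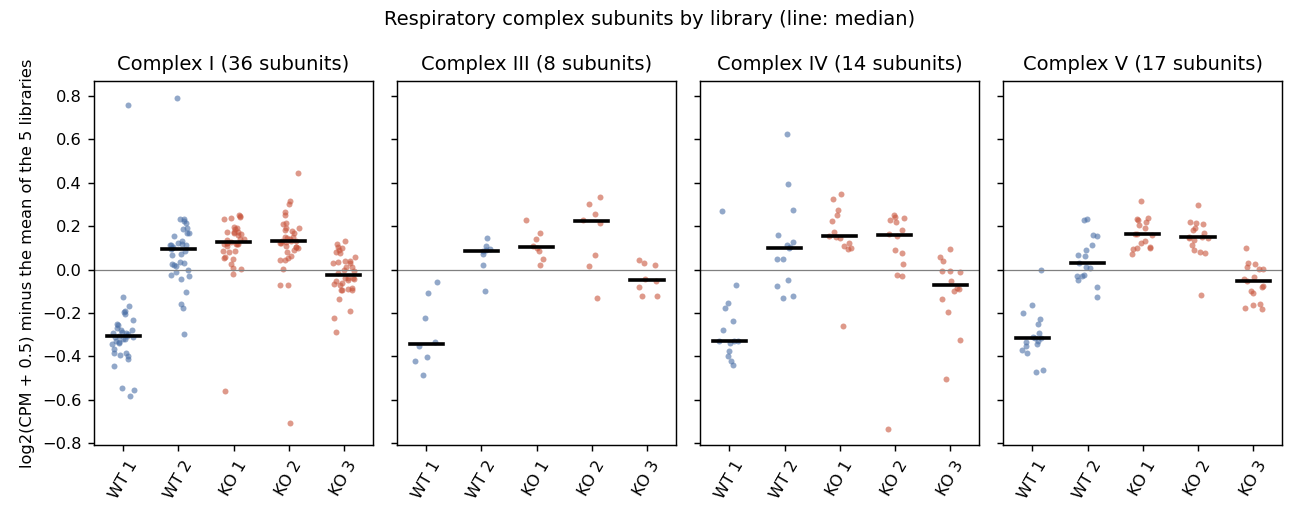
Each point is 1 subunit gene in 1 library, as log2(CPM + 0.5) minus its mean over the 5 libraries, by complex; blue is WT, red is KO and the black line is the median. In each complex the median of WT 1 is the lowest, from -0.34 to -0.31, and the points of WT 2 overlap the KO libraries.

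Without WT 1, 0 of 75 subunit genes rose and 1, Ndufa4l2, fell in edgeR, beside 2.28% of all genes higher and 2.51% lower. The unadjusted p was then under 0.05 for 6 of 75 (8.0%), against 21.7% of all genes. The median log2 fold change was then -0.01, and 34 of 75 estimates were above 0. Without WT 2, 11 rose and 1 fell, beside 4.53% and 4.87% of all genes, and the median was 0.39. Of the 8 genes that rose, Ndufv1, Ndufa8, Cox5a and Atp5g3 then no longer passed (edgeR adjusted p from 0.0630 to 0.0860). Without KO 3, 16 rose and 2 fell, beside 11.8% and 15.2% of all genes. Without KO 1, 2 rose (Ndufa10 and Ndufa11) and 1 fell (Ndufa4l2), beside 5.74% and 6.27% of all genes. Without KO 2 the same 3 genes passed, beside 5.50% and 7.46%. None of the 8 increases was called in all of these runs, since none passed without WT 1, while the decrease of Ndufa4l2 was called whichever library was left out.

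**Figure D2:**
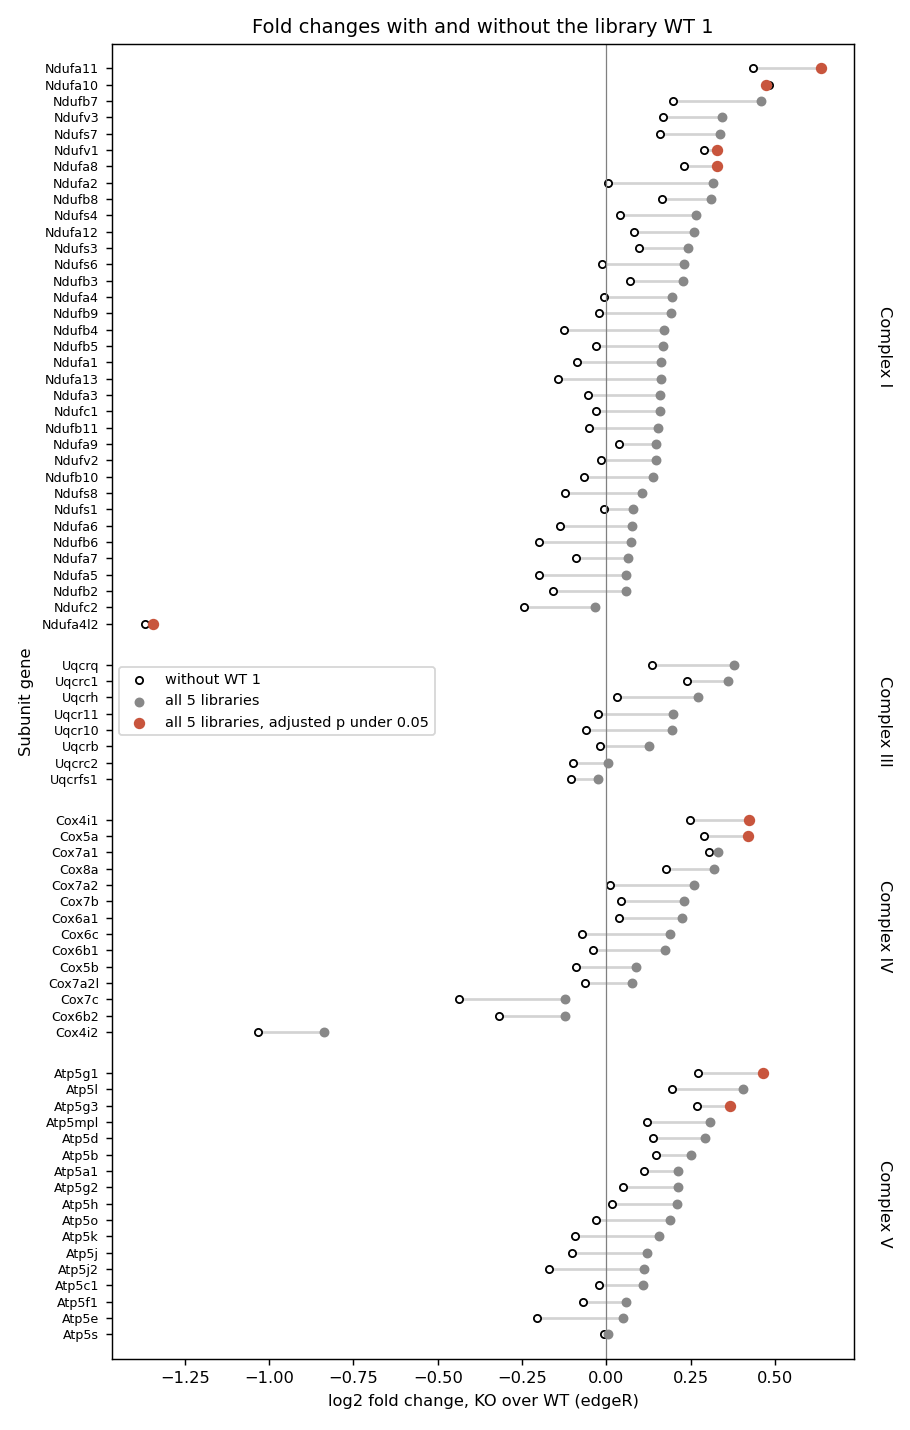
The log2 fold change of KO over WT is drawn for 74 of the 75 tested subunit genes with all 5 libraries (filled; red where the adjusted p is under 0.05) and without WT 1 (open). Nearly all open points lie to the left of the filled ones and are spread around 0, with a median of -0.01 against 0.19. A few genes barely move, among them Ndufa4l2, Ndufa10, Cox7a1 and Atp5s.

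Transcript length and the RNA composition of the libraries moved with this pattern. The members are short, with a median transcript of 727 bases against 2538 bases for all genes tested. Among other genes of up to 1000 bases, the median by library was -0.12 in WT 1 and 0.07 in WT 2, and between -0.02 and 0.06 in the KO libraries. Among other genes over 4000 bases it was 0.14 in WT 1 and -0.01 in WT 2. In the KO libraries it was -0.06 in KO 1 and KO 2 but 0.005 in KO 3, above WT 2. WT 1 also had the Rn45s share and the share of reads outside genes given above. The part of these features in the low values of WT 1 was not tested. With transcript length as an offset in the test, 13 subunit genes rose and the median log2 fold change was 0.14.

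The summed level was also lowest in WT 1 in each complex. All members together came to 7222 and 9074 CPM in WT and to 9804, 9933 and 8666 CPM in KO, which is 8148 ± 1309 (SD, n = 2) against 9467 ± 697 (SD, n = 3) and a ratio of 1.16. The groups overlapped, because KO 3 lay below WT 2, and against WT 2 alone the ratio was 1.04. Complex I summed to 2020 and 2605 CPM in WT and 2718, 2762 and 2465 in KO, with a ratio of 1.15. Complex III summed to 822 and 1045 CPM in WT and 1082, 1135 and 983 in KO, with a ratio of 1.14. Complex IV summed to 1320 and 1717 CPM in WT and 1925, 1924 and 1631 in KO, with a ratio of 1.20. Complex V summed to 3060 and 3707 CPM in WT and 4079, 4112 and 3588 in KO, with a ratio of 1.16. In every complex KO 3 lay between the WT libraries, so no summed level separated the genotypes. The sums carry no test.

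Complex I is built from core subunits, which hold the flavin and the iron-sulphur clusters, and from accessory subunits around them. In all, 4 of its 36 tested genes rose (11.1%) and 1 fell (2.78%), against 9.64% and 10.0% of all genes. The median log2 fold change was 0.17, and -0.01 without WT 1. Of the 7 nuclear core subunits, 1 rose. Ndufv1 (chr19:4007384-4012806), which carries the flavin that accepts electrons from NADH, was at 106 and 111 CPM in WT and 140, 141 and 128 CPM in KO. All KO values lay above both WT values, and the log2 fold change was 0.33 ± 0.09 SE (edgeR adjusted p = 0.0333). Its WT values were close to each other, and without WT 1 the estimate was 0.29 (edgeR adjusted p = 0.196). The other core subunits described here had estimates from 0.08 for Ndufs1, an iron-sulphur subunit, to 0.34 for Ndufs7, which lies near the quinone site. Ndufs7 was at 44.0 and 56.6 CPM in WT and 58.6, 71.0 and 60.7 CPM in KO (edgeR adjusted p = 0.0983). Estimates were 0.24 for Ndufs3, 0.10 for Ndufs8 and 0.15 for Ndufv2, none past the threshold.

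Of the 12 tested accessory subunits named Ndufa, leaving out Ndufa4 and Ndufa4l2, 3 rose. Ndufa10 (chr1:92439010-92473860), a membrane-arm subunit with a nucleoside kinase fold, was at 69.9 and 68.6 CPM in WT and 99.7, 98.0 and 90.8 CPM in KO. The WT values were nearly equal and every KO value lay well above them, with a log2 fold change of 0.47 ± 0.09 SE (edgeR adjusted p = 0.00677). Its estimate was 0.48 without WT 1, with an adjusted p of 0.0556 in edgeR. Ndufa11 (chr17:56717767-56722141), a membrane-arm subunit, was at 39.1 and 52.0 CPM in WT and 69.1, 80.3 and 62.1 CPM in KO. The groups did not overlap, and the log2 fold change was 0.64 ± 0.15 SE (edgeR adjusted p = 0.0143), the largest increase among the subunit genes. Without WT 1 it was 0.44 (edgeR adjusted p = 0.160). Ndufa8 (chr2:36036326-36049406), which faces the intermembrane space, was at 49.9 and 56.8 CPM in WT and 67.4, 69.7 and 63.6 CPM in KO. Its log2 fold change was 0.33 ± 0.10 SE (edgeR adjusted p = 0.0452), and 0.23 without WT 1 (edgeR adjusted p = 0.300). The NRF1 motif was also found before the start of Ndufa8, inside an annotated exon. The other 9 Ndufa genes had positive estimates from 0.06 to 0.32 that did not pass.

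None of the 12 tested Ndufb and Ndufc genes passed in edgeR, with a median log2 fold change of 0.16. The unadjusted p was under 0.05 for 2, and DESeq2 and limma-voom each called 1, Ndufb7. Ndufb7, an accessory subunit of the intermembrane side, was at 30.2 and 44.3 CPM in WT and 48.4, 55.6 and 48.9 CPM in KO. Its groups did not overlap, but the WT values lay apart and the adjusted p in edgeR was 0.0610 for an estimate of 0.46. Ndufc2 was the only gene of this group with an estimate below 0, at -0.03. The remaining accessory subunits Ndufs4, Ndufs6 and Ndufv3 had a median of 0.27 and did not pass. Ndufs5 had 1 count over all 5 libraries, and Ndufb4c had 0 counts in each. A near-identical copy covers 60.8% of the Ndufs5 transcript and 100% of the Ndufb4c transcript, so these counts are uncertain.

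The pair Ndufa4 and Ndufa4l2 is filed under complex I by name. Ndufa4 is now known as a subunit of complex IV, and Ndufa4l2 is a related protein whose gene is induced in low oxygen. Ndufa4l2 (chr10:127514967-127517154) was at 19.3 and 19.8 CPM in WT and 7.45, 6.68 and 9.11 CPM in KO. All KO values lay well below both WT values. The log2 fold change was -1.35 ± 0.16 SE (edgeR adjusted p = 0.000519), the largest change of any subunit gene tested, and without WT 1 it was -1.37 (edgeR adjusted p = 0.0137). It passed in each of the 17 alternative settings, with estimates from -1.56 to -1.27 and adjusted p-values up to 0.0146 (edgeR, DESeq2 or limma). Ndufa4 itself was at 94.3 and 126 CPM in WT and 133, 129 and 115 CPM in KO, and the groups overlapped (edgeR adjusted p = 0.314). Per transcript length, Ndufa4l2 stood at 13.4% and 10.3% of the Ndufa4 level in WT and at 3.66%, 3.37% and 5.17% in KO. Exons on the opposite strand overlap 4 of the 9 called genes, whose counts are uncertain to that extent. The shared part is 2.92% of the exon bases of Ndufa4l2 (with Shmt2), 6.41% of those of Ndufa11 (with Vmac), 9.94% of those of Cox4i1 (with Emc8) and 12.8% of those of Cox5a (with Gm26631).

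The pericyte list moved the same way as Ndufa4l2 in part. Of its 8 markers, Abcc9, Cspg4 and Pdgfrb fell and none rose, while Rgs5, the most abundant, had an estimate of 0.01. Pdgfrb is also in the fibroblast list, so the lists are not separate. The summed level of the list was 977 and 901 CPM in WT and 842 to 910 CPM in KO, and no marker was at 0 in all libraries. In the fibroblast and endothelium lists 10 of 12 and 5 of 10 markers fell, beside 10.0% of all genes. Without WT 1, 1 pericyte, 3 fibroblast and 3 endothelium markers fell. The part of these cells in the lower Ndufa4l2 was not tested.

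**Figure D3:**
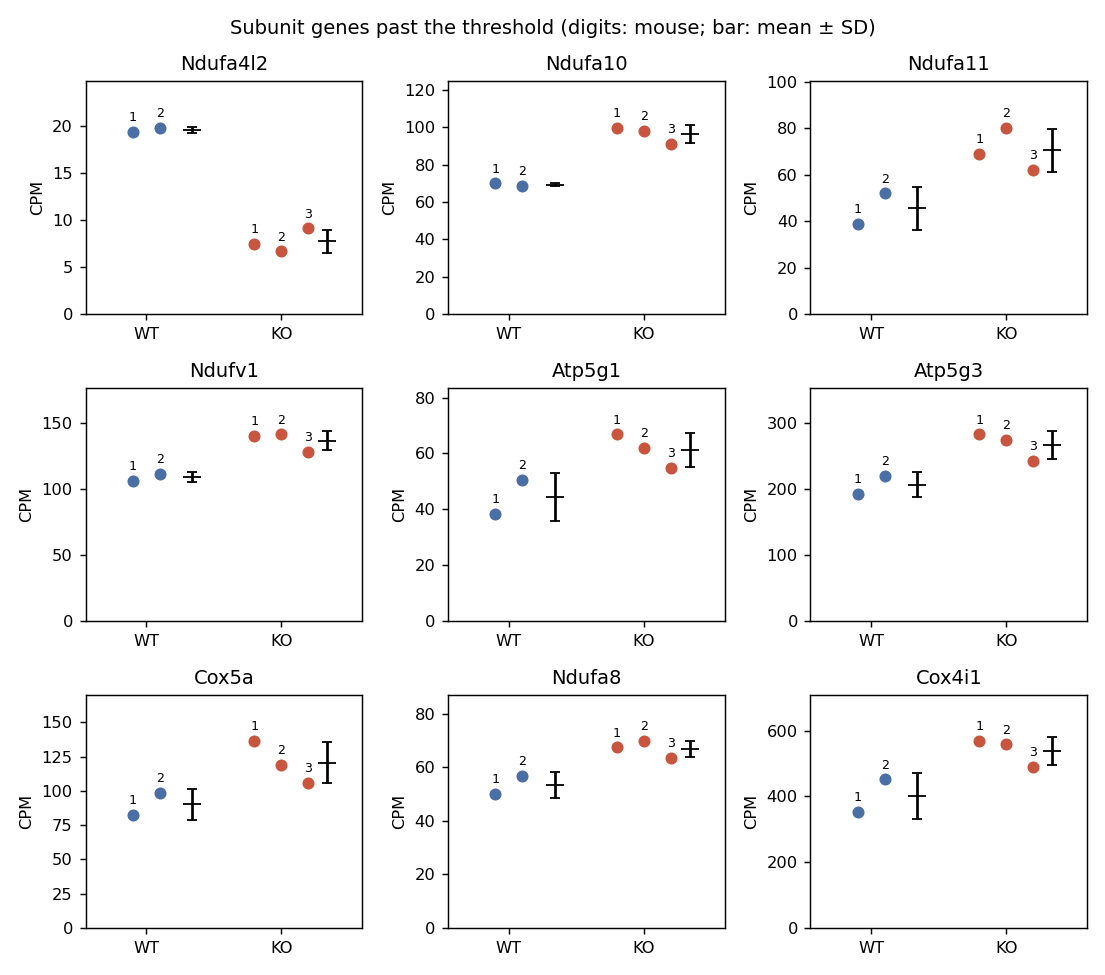
CPM of the 9 subunit genes that passed the test, in WT (blue) and KO (red), with a point per mouse numbered by replicate and a bar for the mean and SD (n = 2 and n = 3); each axis starts at 0. Ndufa4l2 is lower in all KO mice, at 6.68 to 9.11 CPM against 19.3 and 19.8 CPM, and Ndufa10 shows the closest WT values among the 8 genes that rose.

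Complex III takes electrons from reduced quinone to cytochrome c through cytochrome b, cytochrome c1 and the Rieske iron-sulphur protein. None of its 8 tested genes passed in edgeR, with a median log2 fold change of 0.20, and of -0.02 without WT 1. The unadjusted p was under 0.05 for 2, and DESeq2 and limma-voom each called 1, Uqcrc1. The nearest to the threshold was Uqcrc1, a core protein of the matrix side, at 169 and 199 CPM in WT and 226, 262 and 219 CPM in KO. Its groups did not overlap (log2 fold change 0.36 ± 0.12 SE, edgeR adjusted p = 0.0543). The partner core protein Uqcrc2 was at 177 and 204 CPM in WT and 197, 193 and 184 CPM in KO, with an estimate of 0.01. Uqcrfs1, the Rieske protein, was at 81.5 and 90.3 CPM in WT and 93.4, 77.3 and 82.2 CPM in KO, with an estimate of -0.02. The 3 core genes thus differed in their estimates, although a difference between them was not tested. Of the small accessory subunits, Uqcrq had the largest estimate, 0.38 ± 0.15 SE (edgeR adjusted p = 0.106). Cyc1, the cytochrome c1 gene outside the symbol rule, rose from 106 and 122 CPM to 152, 158 and 135 CPM (log2 fold change 0.38, edgeR adjusted p = 0.0346), and without WT 1 it did not pass (edgeR adjusted p = 0.261).

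Complex IV carries its catalytic centres in mitochondrially encoded subunits, around which nuclear subunits are arranged, some with a widespread and a tissue-restricted form. Of the 10 widespread nuclear subunits, 2 rose, with a median of 0.23 for the group. Cox4i1 (chr8:120668222-120674207), the widespread form of the regulatory subunit 4, was at 352 and 452 CPM in WT and 568, 558 and 489 CPM in KO. The groups did not overlap, but the WT values lay apart. The log2 fold change was 0.42 ± 0.13 SE (edgeR adjusted p = 0.0469), and 0.25 without WT 1 (edgeR adjusted p = 0.328). Cox5a (chr9:57521274-57532426), which binds next to subunit 4, was at 82.3 and 98.2 CPM in WT and 136, 119 and 106 CPM in KO. Its log2 fold change was 0.42 ± 0.13 SE (edgeR adjusted p = 0.0413), and 0.29 without WT 1 (edgeR adjusted p = 0.302). Cox5b, which holds a zinc ion, was at 56.5 and 72.7 CPM in WT and 71.8, 71.0 and 62.7 CPM in KO, all KO values lying between those of WT. Cox8a had an estimate of 0.32 (edgeR adjusted p = 0.0810), and Cox6a1, Cox6b1, Cox6c, Cox7a2 and Cox7b had estimates from 0.17 to 0.26 that did not pass. Cox7c was the only widespread subunit with an estimate below 0, at -0.12, but near-identical copies cover 58.3% of its transcript, so its counts are uncertain. The supercomplex factor Cox7a2l had an estimate of 0.08.

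Of the restricted forms of complex IV, 3 of 7 could be tested. None passed in edgeR, DESeq2 or limma-voom, and the unadjusted p was under 0.05 for 1, Cox4i2. Cox4i2, the form of subunit 4 known from lung and from low oxygen, was at 3.76 and 4.95 CPM in WT and 2.45, 1.62 and 3.27 CPM in KO. All KO values lay below both WT values, and the log2 fold change was -0.84 ± 0.31 SE (edgeR adjusted p = 0.0836). Of the 5 runs that left out 1 library, it passed in 1, without KO 3 (-1.07, edgeR adjusted p = 0.0156). In the other 4 the estimate ran from -1.03 to -0.64 (edgeR adjusted p from 0.162 to 0.341). Per transcript length it stood at 1.10% and 1.12% of the Cox4i1 level in WT and at 0.442%, 0.298% and 0.685% in KO, so the ratio also did not overlap. Cox6b2, known from testis, was at 6.87% and 6.55% of the Cox6b1 level in WT and 6.36%, 5.24% and 4.20% in KO. Cox7a1, the heart and skeletal muscle form, was at 4.46% and 3.17% of Cox7a2 in WT and 4.27%, 3.27% and 4.02% in KO, and this ratio overlapped. Its own level, at 1.78 and 1.81 CPM in WT and 2.67, 1.98 and 2.02 CPM in KO, did not overlap and did not pass (edgeR adjusted p = 0.465).

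Among untested members, Cox8b, the heart and skeletal muscle form of subunit 8, had 15 counts over the WT libraries and 1 over the KO libraries. The counts were 7 and 8 in WT and 0, 0 and 1 in KO, and the ratio of WT to KO after scaling was 25.1 (95% exact interval 3.86 to 1057, counting error alone). It was the lone low-count member whose interval did not include 1, a contrast noticed after the values were seen. Markers of skeletal muscle summed to 4.34 and 4.53 CPM in WT and 5.04, 3.97 and 3.66 CPM in KO, with Myh2 at 0 in each library. The brown fat marker Ucp1 was at 0.139 to 0.601 CPM over all libraries. The adipocyte list that holds Ucp1 summed to 466 and 542 CPM in WT and 493, 444 and 603 CPM in KO. The part of these cells in the Cox8b counts was not tested. Cox6a2, the muscle form of subunit 6a, had 5 counts over WT and 3 over KO (ratio 2.79, 95% exact interval 0.543 to 18.0). Cox7b2 and Cox8c had 0 counts in all libraries, and a floor of 3 counts over the group allows up to 0.0896 CPM in WT and 0.0535 CPM in KO.

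Complex V joins a rotating ring of c subunits in the membrane to the catalytic F1 head, held by a peripheral stalk. Of 17 tested genes 2 rose (11.8%), a share close to the 9.64% of all genes. Both were of the c ring. The median was 0.21, or 0.02 without WT 1. The c subunit is encoded by Atp5g1, Atp5g2 and Atp5g3, which give the same mature protein. Atp5g1 (chr11:96068852-96075670) was at 38.4 and 50.6 CPM in WT and 66.8, 62.0 and 54.8 CPM in KO. Its log2 fold change was 0.47 ± 0.14 SE (edgeR adjusted p = 0.0371), and 0.27 without WT 1 (edgeR adjusted p = 0.309). A near-identical copy covers 69.0% of the Atp5g1 transcript, so its counts are uncertain. Atp5g3 (chr2:73908447-73911326) was at 193 and 220 CPM in WT and 283, 274 and 242 CPM in KO. Its log2 fold change was 0.37 ± 0.11 SE (edgeR adjusted p = 0.0402), and 0.27 without WT 1 (edgeR adjusted p = 0.271). Atp5g2 was at 75.9 and 95.2 CPM in WT and 99.7, 102 and 94.8 CPM in KO, and its groups overlapped. Near-identical copies cover 100% of the Atp5g2 transcript, so its counts and the shares that follow are uncertain too. Per transcript length, Atp5g3 gave 52.0% ± 1.91 of the ring's transcripts in WT (SD, n = 2) and 53.3% ± 0.720 in KO (SD, n = 3). Atp5g2 gave 34.7% ± 1.05 and 32.1% ± 1.24, and Atp5g1 13.3% ± 0.856 and 14.7% ± 0.541.

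The 5 genes of the F1 head did not pass in edgeR, DESeq2 or limma-voom, with a median of 0.21 and an unadjusted p under 0.05 for 1, Atp5d. Atp5b, the catalytic beta subunit, was at 774 and 891 CPM in WT and 1032, 1045 and 893 CPM in KO. All KO values lay above WT, KO 3 by a narrow margin (log2 fold change 0.25 ± 0.12 SE, edgeR adjusted p = 0.178). Atp5a1, the alpha subunit, was at 823 and 943 CPM in WT and 1035, 1071 and 965 CPM in KO (edgeR adjusted p = 0.221). Estimates were 0.29 for Atp5d, 0.11 for Atp5c1 and 0.05 for Atp5e, the subunits of the central stalk. The 4 genes of the peripheral stalk, Atp5f1, Atp5h, Atp5j and Atp5o, had estimates from 0.06 to 0.21. Of the 4 small membrane subunits, Atp5l was nearest to the threshold, at 46.4 and 62.8 CPM in WT and 75.2, 72.2 and 68.8 CPM in KO (log2 fold change 0.41 ± 0.13 SE, edgeR adjusted p = 0.0510). Both DESeq2 and limma-voom called Atp5l. Atp5s had an estimate of 0.01.

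Levels could be compared between genes per transcript length, as CPM per kilobase averaged over the 5 libraries. Restricted forms, Ndufa4l2, Atp5s and the members with too few counts to be tested were left out. Complex I ran from 17.1 for Ndufb4 to 196 for Ndufa4, with a median of 77.3. Complex III ran from 62.3 for Uqcrfs1 to 354 for Uqcr10, with a median of 137. Complex IV ran from 66.7 for Cox7c to 649 for Cox4i1, with a median of 168. Complex V ran from 91.5 for Atp5g1 to 484 for Atp5b, with a median of 197. Over these sets complex I had the lowest median level per length and complex V the highest. The complex IV set includes the supercomplex factor Cox7a2l, at 144 CPM per kilobase in WT and 152 in KO, below the set's median. Without Cox7a2l the complex IV median would be higher, so the order of complexes IV and V is uncertain. Near-identical copies cover 40.2% of the Ndufb4 transcript, 58.3% of that of Cox7c and 69.0% of that of Atp5g1, so these lowest levels are uncertain. Of the 75 genes tested, 16 have a near-identical copy elsewhere in the transcriptome, and 1 of these passed the test, against 8 of the 59 without one. The median log2 fold changes of these 2 sets were 0.18 and 0.19.

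Genes that assemble or accompany the complexes were read from the same test, against the same 9.64% higher and 10.0% lower over all genes. Of the 4 Sdh genes of complex II none passed in edgeR, DESeq2 or limma-voom, and 1, Sdhd, had an unadjusted p under 0.05. Sdha, the flavoprotein, was at 275 and 301 CPM in WT and 310, 313 and 303 CPM in KO, and Sdhc, a membrane anchor, was the only one with an estimate below 0 (-0.23, edgeR adjusted p = 0.171). Of 18 complex I assembly factors, Ndufaf4 rose (log2 fold change 0.54, edgeR adjusted p = 0.0305). Of 6 complex III assembly factors, Lyrm7, which handles the Rieske protein before its insertion, fell from 3.92 and 4.11 CPM to 1.88, 1.14 and 1.40 CPM (log2 fold change -1.41 ± 0.29 SE, edgeR adjusted p = 0.00903). Of 21 complex IV assembly factors, Cox18, which inserts a mitochondrially encoded subunit into the membrane, rose from 9.61 and 10.3 CPM to 17.8, 17.1 and 16.4 CPM (log2 fold change 0.78 ± 0.14 SE, edgeR adjusted p = 0.00386). Of the 5 tested complex V assembly factors none passed in edgeR, DESeq2 or limma-voom, and 0 had an unadjusted p under 0.05. Without WT 1, none of Ndufaf4, Lyrm7 and Cox18 passed (edgeR adjusted p from 0.0567 to 0.184).

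Of 25 tested regulators of mitochondrial biogenesis, 2 rose. Myc, a growth regulator, was at 23.9 and 27.0 CPM in WT and 64.9, 71.5 and 59.0 CPM in KO (log2 fold change 1.36 ± 0.12 SE, edgeR adjusted p = 9.7e-05). Pprc1, a coactivator of the PGC-1 family, was at 28.4 and 24.3 CPM in WT and 44.9, 52.2 and 40.0 CPM in KO (log2 fold change 0.79 ± 0.14 SE, edgeR adjusted p = 0.00357). Both also passed without WT 1, with edgeR adjusted p of 0.00534 for Myc and 0.0303 for Pprc1. The median over the list was -0.06, and 9 of 25 estimates were above 0. Nrf1 and Gabpa, whose motifs were searched in the promoters, had estimates of -0.07 and -0.24 and did not pass.

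The other lists of mitochondrial and metabolic genes differed in how far WT 1 stood apart. Of 22 citric acid cycle genes, which include the 4 Sdh genes, Mdh2, Cs and Dlat rose, and the median was 0.17, or 0.10 without WT 1. Of 31 genes of import and cristae, Tomm40 and Slc25a5 rose, and the median was 0.22, or 0.11 without WT 1. Of 78 mitochondrial ribosomal protein genes, Mrps6 and Mrpl38 rose, the median was 0.15, or 0.00 without WT 1, and WT 1 was lowest for 68. Of 88 cytosolic ribosomal protein genes 3 rose and 2 fell, the median was 0.27, or 0.05 without WT 1, and WT 1 was lowest for 75. Of 21 glycolysis genes 9 rose and 2 fell. The lactate exporter gene Slc16a3 rose from 12.4 and 14.4 CPM to 26.5, 33.3 and 21.3 CPM (log2 fold change 1.02, edgeR adjusted p = 0.00482), Pfkl rose by 0.48 on the log2 scale, and Pdk1 and Eno2 fell by 0.53 and 0.52. The glycolysis median was 0.32, or 0.25 without WT 1, when none of the 21 genes passed in edgeR and 11 had an unadjusted p under 0.05. Without WT 1, 0 genes of the citric acid cycle and import lists passed in edgeR, with an unadjusted p under 0.05 for 6 and 1 genes. The medians of the ribosomal lists without WT 1, like that of the subunits, were near 0, and those of the glycolysis, citric acid cycle and import lists were further above it.

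**Figure D4:**
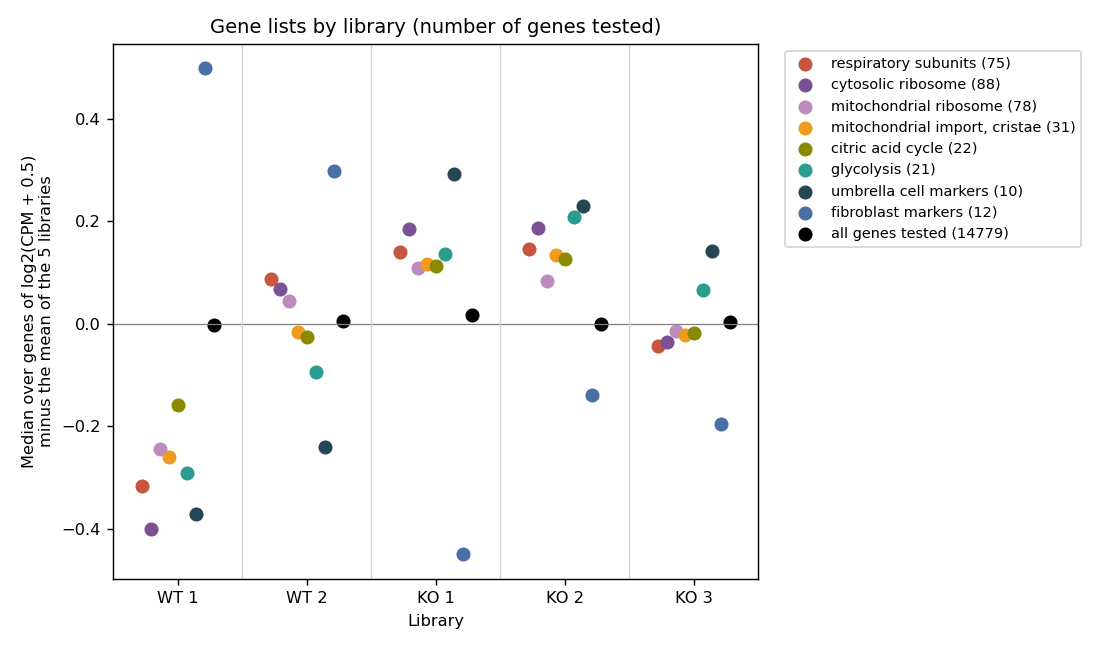
Median by library of log2(CPM + 0.5) minus the mean of the 5 libraries, for the subunits and other gene lists, with the number of genes tested in each list in the key. The subunits and the ribosomal lists are low in WT 1 (-0.32, -0.40 and -0.25) and above 0 in WT 2, while umbrella cell markers are below 0 in both WT libraries and fibroblast markers above 0 in both.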

How the data were processed

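The deposited values were raw gene counts, 1 column for each of 5 libraries (2 WT, 3 KO). The submitters' processing notes name the genome build mm10 and the tools HTSeq 0.11.1, HISAT2 2.1.0 and DESeq2. Per the labels' protocols, total RNA was made into sequencing libraries with the TruSeq kit. Neither the annotation nor the strand setting that HTSeq used is given in the sources used here, which leaves genes with a partner on the opposite strand uncertain. The 5 summary entries of each table were not counted as genes.

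The counts were passed through filterByExpr (10 counts, 15 in total), scaled with TMM and tested with edgeR 4.0.16 (quasi-likelihood test, genotype as the only term, Benjamini-Hochberg adjustment over 14779 genes, threshold 0.05) in R 4.3.3. Each SE is the log2 fold change divided by the root of its F value. The common biological coefficient of variation was 0.109. Alternatives used DESeq2 1.42.0 and limma 3.58.1. In data simulated for 14779 genes the test called 0% of the genes altered by a fold of 1.25 and 46% of those altered by 1.5. It called 70% of those altered by a fold of 2 and 94% of those altered by 4, and 2 of 107 calls were false. Only 50 genes were altered at each fold, while 2907 genes passed in the real comparison, so the adjusted threshold was stricter in the simulated data. These percentages are thus not the sensitivity of the real comparison, in which Ndufv1 passed at a fold of 1.26.

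Positions and transcript lengths are from GENCODE vM21 (GRCm38), in which 98.35% of the 24970 genes were matched by symbol or synonym. Near-identical copies were sought with blastn (at least 97% identity over 75 bases). The members and gene lists were chosen with earlier results of these data known. Named genes are all subunit genes past the threshold, the core subunits, the isoform pairs, and up to 4 genes past the threshold with the smallest p in each other list; others were named after their values were seen. S6 kinase genes and Rps19bp1, which share the symbol pattern of ribosomal proteins, were left out of that list. Each library was taken as 1 mouse, as the study's design text describes, and replicate numbers carry no order. 1 subunit gene is not reported singly here.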

Additional observations from a re-analysis of the deposited data

How the results depend on the processing

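Changes near the subunits' median are smaller than the folds that the test recovered in simulated data, where the threshold was stricter. Too few counts to be tested were found for 6 members. Leaving out 1 library at a time gave 340 to 1743 genes higher and 375 to 2246 lower in KO. Among members, 0 to 16 were higher and 1 to 2 lower, with 0 to 7 higher in complex I, 0 to 2 in III, 0 to 3 in IV and 0 to 4 in V, and 0 to 1 lower in IV. Medians ran from -0.0138 to 0.394 for all members, -0.0140 to 0.375 in I, -0.0225 to 0.449 in III, -0.0129 to 0.402 in IV, 0.0163 to 0.405 in V and -0.0092 to 0.0016 for all genes. Log2 ratios of summed CPM ran from 0.0612 to 0.391 for all members, 0.0238 to 0.390 in I, 0.0293 to 0.376 in III, 0.0897 to 0.469 in IV and 0.0827 to 0.360 in V.

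Against 8 members higher and 1 lower, upper-quartile scaling gave 2 higher (2 in I, 0 in IV, 0 in V) and library size alone gave 3 (0 in IV, 0 in V). A minimum of 5 CPM in 2 libraries gave 2 (2 in I, 0 in IV, 0 in V). Testing all genes with at least 1 count gave 17 higher (9 in I, 2 in III) and 3 lower (2 in IV). A length offset gave 13 higher (7 in I). In complex III, 1 gene was higher by the robust fit, DESeq2 and limma-voom, which called 10, 11 and 11 members higher in all. Counting Ndufa4 and Ndufa4l2 with complex IV moved the lower gene from I (0) to IV (1). The median of all genes was -0.0344 with upper-quartile scaling, -0.015 with library size alone, -0.0041 without ribosomal and nuclear RNA entries and -0.0088 with the 5 CPM minimum. The causes were not tested. Ndufa4l2, Ndufa10 and Ndufa11 were called in each of these settings. None of the 9 genes called changed direction in any alternative run, while the medians of all members and of complexes I, III and IV were below 0 without WT 1.

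The labels do not say that equal replicate numbers pair the mice, and deviations of same-numbered samples correlated at -0.055 and 0.052. Replicate 3 exists in KO alone, so with a block KO 3 adds nothing to the genotype estimate. These runs therefore differ from the main test in the libraries that inform it as well. With the replicate number as a block, 2211 genes were higher and 2426 lower, and 29 members higher (13 in I, 4 in III, 6 in IV, 6 in V) and 2 lower (1 in IV). With the block and a length offset, 2494 genes were higher and 2291 lower, and 24 members higher (9 in I, 4 in III, 5 in IV, 6 in V) and 2 lower (1 in IV). Leaving out mitochondrially encoded entries could not be run, as there were 0.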
